A study of Mus musculus with 12 samples.

Results

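The Myc, Max and Mxd network was examined as 9 genes, Myc, Mycn, Mycl, Max, Mxd1, Mxd3, Mxd4, Mxi1 and Mnt, out of 20959 genes matched on at least 1 of the array designs. A probe was a member if the transcript accession beside it in the array files belonged to one of these genes, older names such as Mycl1 included. The rule itself uses no measured value. The rule found 11 probes for the 9 genes on the design used for retinoic acid and 14 probes on the design used for vitamin C.

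Total RNA came from J1 mouse embryonic stem cells, a single pluripotent line, kept without feeder cells on gelatin in serum replacement medium with LIF at 1000 U/ml, a cytokine that holds back differentiation. All groups shared this medium and a treatment of 24 h, and each held 3 samples. They received retinoic acid (RA, 1 μM), its solvent control DMSO, vitamin C (VC, labelled as an amount with no volume) or its control ddH2O. The series title names the question, which genes VC and RA regulate. Whether samples of 1 group are separate cultures is not stated in the labels, and p-values here measure only a spread between samples that may be technical.

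Myc, Mycn and Mycl are basic helix-loop-helix leucine zipper proteins that bind DNA as pairs with Max, above all at the E-box, and raise transcription of genes for ribosome synthesis, metabolism and division. The Mxd proteins, Mxi1 and Mnt compete for Max and, with it, bring the Sin3 and histone deacetylase corepressors to the same sites. In mouse embryonic stem cells Myc lies downstream of LIF, and Myc and Mycn are known to support growth and self-renewal, while Mxd genes are known for their expression in cells that differentiate.

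Because the network's proteins bind E-boxes, the promoters of the members were searched for that motif. Windows of 250 bases before to 50 bases after a gene's start were found in RefSeq (GRCm38.p6) for 8 of the 9 genes, 10 windows in all, and Myc is named only. The letters CACGTG, the E-box, occurred in 3 of the 10 windows, those of Max, Mxd4 and Mnt, against 7.15% of 32851 promoters of the same length. The variant CACGCG occurred in that of Mycl alone, against 9.27%. Searches covered both strands. The E2F motif TTTGGCGC matched at 2 places of the Mycn window, and TTTCGCGC matched there on the other strand, overlapping the first of them. These were found in 0.514% and 0.323% of all promoters. A direct repeat of AGGTCA with 5 bases between, a retinoic acid receptor motif, had no match in the member windows and was found in 0.00913% of promoters, which says only that these letters are not in these windows. Stretches of 120 bases around the matches are shown because the motif of the network lies in promoters of members that differed between RA and DMSO in both directions. Capitals mark the matches, which are a description of the letters and not of binding. On the plus strand lie those of Mycl (chr4:122995831-122995950) and Mnt (chr11:74830744-74830863), and on the minus strand those of Mycn (chr12:12941948-12942067), Max (chr12:76962229-76962348) and Mxd4 (chr5:34187841-34187960).
Mycn: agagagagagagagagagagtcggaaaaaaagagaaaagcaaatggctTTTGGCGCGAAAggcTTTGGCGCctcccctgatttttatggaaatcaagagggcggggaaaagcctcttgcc
Mycl: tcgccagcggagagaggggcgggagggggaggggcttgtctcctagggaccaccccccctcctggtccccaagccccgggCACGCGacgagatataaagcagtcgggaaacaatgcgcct
Max: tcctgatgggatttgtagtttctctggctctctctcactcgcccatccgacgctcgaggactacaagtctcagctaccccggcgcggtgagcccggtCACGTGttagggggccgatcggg
Mxd4: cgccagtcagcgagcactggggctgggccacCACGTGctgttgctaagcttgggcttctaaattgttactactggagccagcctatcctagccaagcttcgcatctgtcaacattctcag
Mnt: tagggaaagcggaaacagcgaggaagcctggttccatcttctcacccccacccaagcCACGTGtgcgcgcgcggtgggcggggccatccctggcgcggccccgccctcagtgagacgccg
Counted from the start of the gene, the E-box began at base -3 in Max, -123 in Mnt and -219 in Mxd4, and the variant at -20 in Mycl. The matches in Mycn began at -183, -179 and -168.

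The share of probes well above background was 60.9% to 65.6% on arrays of the RA design and 67.0% to 70.3% on arrays of the VC design, and no spot was saturated. Pou5f1 and Sox2, defining genes of these cells, were well above background on all 12 arrays. In RA samples Pou5f1 was 33.0-fold and Sox2 4.20-fold lower than in DMSO samples, and Cyp26a1, which degrades retinoic acid, was 323-fold higher. The 75th percentile of the log2 signal lay between 8.17 and 8.60 on RA arrays and between 9.25 and 9.26 on DMSO arrays. All RA arrays lay on 1 slide and all DMSO arrays on another, so slide and treatment cannot be told apart in that comparison.

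In RA samples, Myc, Mycn, Max, Mxd3 and Mnt fell and Mycl and Mxd4 rose, relative to DMSO samples. Myc fell most among those that fell (2.96-fold) and Mxd4 rose most (3.55-fold and 6.16-fold in its probes). Of the 10 member probes tested, 3 were higher and 5 lower at a limma adjusted p under 0.05, and 2 were not called. In the same fit 71.6% of all 37050 probes were called, 36.0% higher and 35.5% lower, so a share of 8 in 10 is near the background and is not a result about these genes. The median difference was -0.28 on the log2 scale over the 10 probes and 0.03 over all probes tested. In RNA from a whole culture, fewer cells with a transcript and less of it in each cell cannot be told apart.

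The activators moved in opposite directions. Levels are given as log2 signal minus the 75th percentile of the array, so a level of 0 is that of the 75th percentile, and levels of different probes are not set against each other. For Myc (probe A_52_P108346, the mean of 2 spots) the levels were -0.69, -0.46 and -0.86 in RA samples and 1.02, 0.83 and 0.85 in DMSO samples. Every RA sample lay below every DMSO sample. The difference was -1.57 (SE 0.12, 95% interval -1.87 to -1.27, limma adjusted p = 8.67e-05), and 7.47% of all tested probes had a lower one. Mycn, the paralogue that is abundant in early embryonic cells (A_52_P536494), had levels of 3.01, 3.33 and 2.72 in RA samples and 4.03, 3.98 and 4.12 in DMSO samples. The RA samples were again all lower, with a wider spread (SD 0.30, against 0.070 in DMSO samples, n = 3 each). Mycn fell by 1.02 on the log2 scale, or 2.03-fold (SE 0.16, limma adjusted p = 0.00171).

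Mycl, the remaining activator (A_55_P1972025), had levels of -0.66, -0.60 and -0.62 in RA samples and -2.01, -1.96 and -1.86 in DMSO samples. All RA samples were higher and close to each other. It rose by 1.32 on the log2 scale, or 2.49-fold (SE 0.07, 95% interval 1.14 to 1.50, limma adjusted p = 2.33e-05), more than 87.7% of tested probes. Its promoter stretch above holds the E-box variant, as no other member window does.

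Max, the shared partner, differed least among the members that were called. Its levels (A_55_P1962801) were 3.70, 3.59 and 3.69 in RA samples and 3.99, 3.94 and 4.01 in DMSO samples. The groups did not overlap, and the difference was -0.32 (SE 0.07, limma adjusted p = 0.00669), a 1.25-fold lower level. This call was lost with quantile normalization (-0.06, adjusted p = 0.442) and in the authors' deposited series values (-0.06, adjusted p = 0.443).

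Among the competitors for Max, Mxd4 rose while Mxd3 and Mnt fell. Mxd4, a transcriptional repressor that pairs with Max, had levels of 0.92, 0.85 and 0.88 in RA samples and -0.91, -0.90 and -1.02 in DMSO samples at probe A_55_P2117928. At its other probe, A_55_P2172121, the levels were -1.72, -1.54 and -1.61 in RA samples and -4.32, -4.19 and -4.22 in DMSO samples. Both probes put all RA samples above all DMSO samples. The first gave a rise of 1.83 (SE 0.07, 95% interval 1.66 to 2.00, limma adjusted p = 5.68e-06) and the second one of 2.62 (SE 0.08, 95% interval 2.42 to 2.82, limma adjusted p = 2.60e-06), so they agree in direction and not in size. The rises exceeded those of 92.5% and 95.6% of all tested probes. Of all probes, 17.6% were called and at least 2-fold higher, and 14.5% were called and at least 2-fold lower.

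Mxd3, the family member known from proliferating cells (A_52_P190647), had levels of -0.39, -0.65 and -0.25 in RA samples and 0.43, 0.43 and 0.42 in DMSO samples. It fell by 0.86 on the log2 scale, or 1.81-fold (SE 0.11, limma adjusted p = 0.000787), with no overlap. Mnt, a broadly expressed antagonist of Myc (A_52_P477431), had levels of 3.03, 3.09 and 3.31 in RA samples and 3.81, 3.85 and 3.84 in DMSO samples. It fell by 0.69, or 1.61-fold (SE 0.09, limma adjusted p = 0.000954), again with all RA samples lower.

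Mxd1, known as a repressor of proliferation in differentiating cells, was not called at either probe. Of the 10 tested member probes 3 were higher and 6 lower without overlap between groups, against 38.5% and 38.6% of all probes. At A_51_P490795 its levels were -1.49, -1.20 and -1.67 in RA samples and -1.13, -1.32 and -1.18 in DMSO samples, and the groups overlapped. The difference was -0.24 (95% interval -0.57 to 0.09, limma adjusted p = 0.152). It was -0.37 and called without RA replicate 2 (adjusted p = 0.0245). At A_55_P2025248 the levels were -1.64, -1.56 and -1.47 in RA samples and -1.28, -1.45 and -1.44 in DMSO samples, which did not overlap. The difference there was -0.17 (95% interval -0.38 to 0.05, limma adjusted p = 0.130). Mxi1, a repressor related to the Mxd proteins, had 1 probe (A_55_P1987096) that was not well above background on any of the 6 arrays and was not tested.

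**Figure D1:**
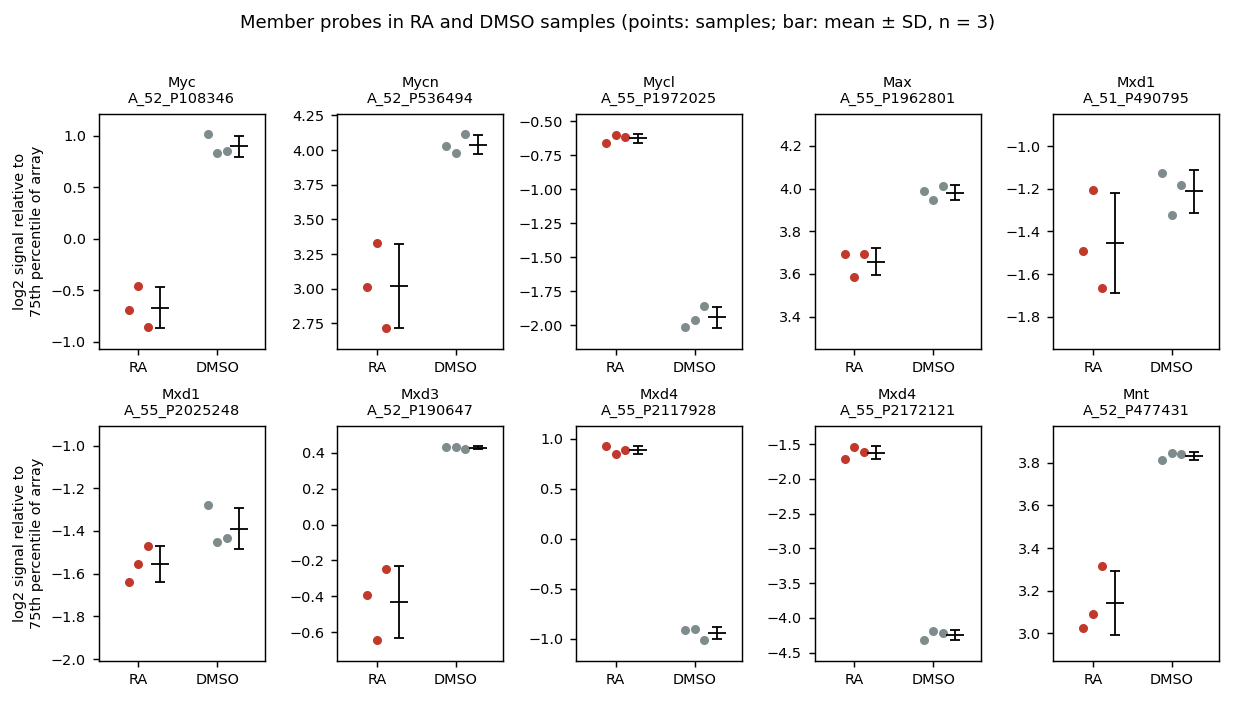
Levels of the 10 tested member probes in RA and DMSO samples, as log2 signal relative to the 75th percentile of the array, each panel on its own scale. Points are samples and bars the mean with SD (n = 3). Myc, Mycn, Max, Mxd3 and Mnt lie lower and Mycl and both Mxd4 probes higher in all RA samples than in all DMSO samples.

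The directions of Myc, Mycn, Mycl, Mxd3, Mxd4 and Mnt held under all other ways of scaling the arrays, although the median of all probes shifted by -0.34 with median scaling, by -0.48 with spike-in scaling and by 0.26 with another background correction. Mxd1 was called lower at both probes with median scaling (-0.58 and -0.51) and with spike-in scaling (-0.72 and -0.65). Calls split 50.3% higher in the main setting, 34.0% with median scaling, 27.3% with spike-in scaling and 63.6% with that background correction.

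A ratio of 2 probes on the same array is free of any scaling that shifts all log2 values of an array by 1 constant, though not of quantile normalization. Each member was therefore set against Max, its shared partner, as the log2 ratio of its brightest probe to the Max probe. Relative to Max, Mxd4 was higher in RA samples by 2.15 and Mycl by 1.64, while Myc was lower by a ratio difference of -1.24, Mycn of -0.70, Mxd3 of -0.54 and Mnt of -0.37. In these 6 of 7 ratios the RA and DMSO samples did not overlap. Among all tested probes, 38.5% lay higher and 38.6% lower without overlap. The share for ratios of other genes to Max was not computed, so the count of 6 is only a description. Each of the 6 ratios gave a two-sided exact permutation p of 0.1, the smallest that 3 samples against 3 can give, and 0.117 adjusted over the 7 ratios. For Mxd1 the difference was 0.08 and the samples overlapped (exact permutation p = 0.8). These are differences of change between probes, and Max itself was lower in the RA samples. In the authors' deposited series values the ratio of Mxd1 differed by -0.36.

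**Figure D2:**
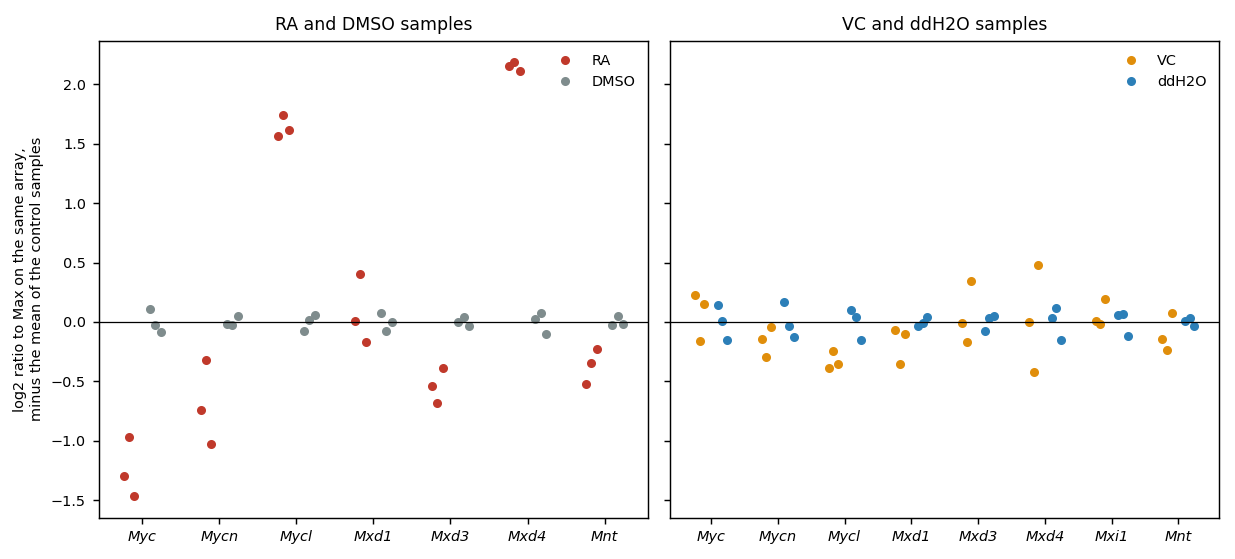
Log2 ratio of each member's brightest probe to Max on the same array, minus the mean ratio of the control samples, so that 0 is the DMSO mean on the left and the ddH2O mean on the right. Points are samples (n = 3 a group). In RA samples Mycl and Mxd4 lie above and Myc, Mycn, Mxd3 and Mnt below all DMSO samples, while VC samples lie within 0.5 of the ddH2O mean.

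In VC samples no member probe differed from ddH2O samples at the threshold, and the estimates were small. All 14 probes, covering all 9 genes, were tested, and 0 were called higher or lower by limma, against 8.28% of 28160 probes (2.97% higher and 5.32% lower). At an unadjusted p under 0.05 there were 3. The differences were positive at 10 probes and negative at 4, with a median of 0.11 against 0.01 over all probes, and the 95% intervals reached no further than 0.71 from 0 on the log2 scale. No member probe was called in any of 20 other settings, each sample left out in turn included. In some of these settings 0 of all tested probes were called, so a count of 0 members was fixed in advance. These were normexp background correction, no filter on dim probes, the replicate block and the slide as a fixed block. The fits without VC replicate 1, ddH2O replicate 1 or ddH2O replicate 2 were also among them.

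Myc had 3 probes in this design, all with a positive difference. At A_51_P102096, the mean of 10 spots, the levels were 0.27, -0.02 and 0.09 in VC samples and 0.04, -0.07 and -0.12 in ddH2O samples. The groups overlapped. The difference was 0.17 (95% interval -0.06 to 0.40, limma adjusted p = 0.290). At A_52_P108346 the difference was 0.25 (95% interval -0.0048 to 0.50, limma adjusted p = 0.181) and at A_52_P278549 it was 0.33 (95% interval -0.05 to 0.71, limma adjusted p = 0.227). All 3 intervals included 0.

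Mycn gave -0.06 at A_52_P536494 (95% interval -0.23 to 0.11), with levels of 2.84, 2.78 and 2.84 in VC samples and 3.002, 2.82 and 2.84 in ddH2O samples. Its dimmer probe A_51_P497332 had levels of -2.52, -2.60 and -2.47 in VC samples and -2.70, -2.88 and -2.64 in ddH2O samples. All VC samples were higher at that probe, by 0.21 (limma adjusted p = 0.169), so the Mycn probes differ in sign. Mycl (A_52_P93284) had levels of -1.96, -1.72 and -2.03 in VC samples and -1.62, -1.65 and -1.74 in ddH2O samples. VC replicate 2 lay among the ddH2O samples, and the difference was -0.23 (95% interval -0.46 to -0.0048, limma adjusted p = 0.168). Max (A_51_P188211) differed by 0.10 (95% interval -0.09 to 0.28).

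The smallest adjusted p belonged to Mxi1 (A_51_P294994), which this design measured well above background on all 6 arrays. Its levels were 0.81, 0.88 and 0.90 in VC samples and 0.71, 0.74 and 0.66 in ddH2O samples. All VC samples were higher, by 0.16 (95% interval 0.02 to 0.30, limma adjusted p = 0.136). Without overlap, 2 of the 14 member probes were higher and 0 lower in VC samples, against 18.4% and 18.2% of all probes. Mxd4 (A_51_P148865) differed by 0.12 (95% interval -0.31 to 0.54), and its VC samples spread from -2.39 to -1.68, on both sides of the ddH2O samples at -2.24 to -2.07. Mxd3 differed by 0.15 and 0.06 in its probes A_52_P190647 and A_51_P315530, Mxd1 by -0.08 and 0.09 at A_51_P490795 and A_51_P388607, and Mnt (A_52_P477431) by -0.01 (95% interval -0.16 to 0.15).

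**Figure D3:**
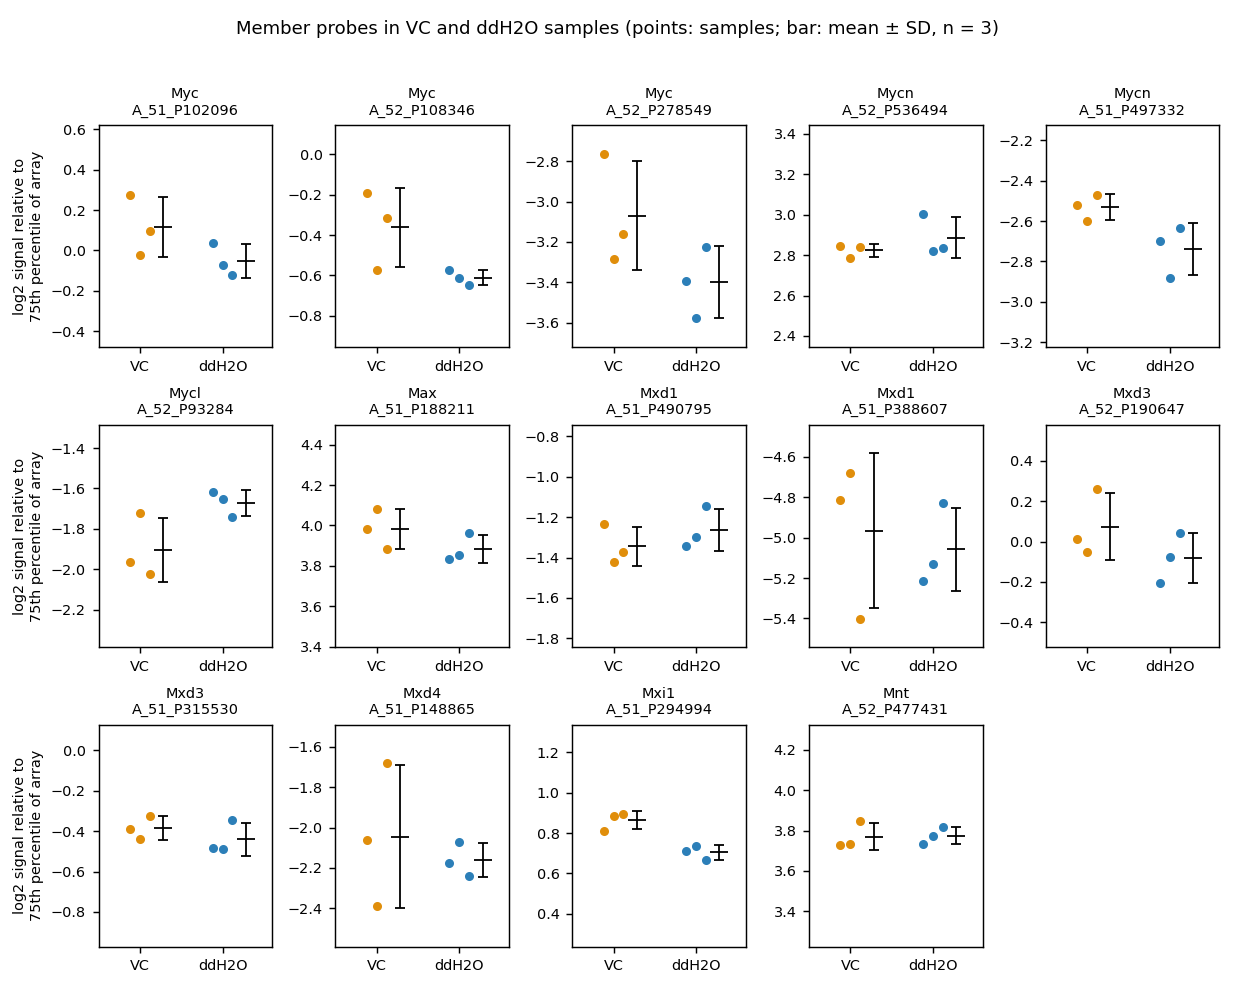
Levels of the 14 member probes in VC and ddH2O samples, as log2 signal relative to the 75th percentile of the array, each panel on its own scale. Points are samples and bars the mean with SD (n = 3). The groups overlap in 12 panels and lie apart in those of Mycn A_51_P497332 and Mxi1.

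Relative to Max on the same array, Mycl was lower in VC samples (ratio difference -0.33) and so was Mxd1 (-0.18), without overlap in either. Both had an exact permutation p of 0.1 and 0.4 adjusted over 8 ratios. Of all probes 18.2% lay lower without overlap in VC samples, and the share for ratios of other genes to Max was not computed. The Mxd1 difference was -0.09 without VC replicate 2 or with the mean of its probes. The other 6 ratios overlapped. VC replicates 1 and 2 and ddH2O replicates 2 and 3 shared a slide, ddH2O replicate 1 was on another, and VC replicate 3 on a further slide with a scan day of its own. A fit with slide as a fixed block leaves only the comparison within the shared slide. In it 0 of all 28160 probes were called, so none of the 14 member probes could be. The 3 Myc differences in that fit were 0.22, 0.25 and 0.38.

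The array designs had 5 member probes in common. At Myc A_52_P108346 the difference was -1.57 for RA against DMSO and 0.25 for VC against ddH2O. At Mycn A_52_P536494 these were -1.02 and -0.06, at Mxd3 A_52_P190647 -0.86 and 0.15, at Mnt A_52_P477431 -0.69 and -0.01, and at Mxd1 A_51_P490795 -0.24 and -0.08. The difference between the treatments was not tested, since the designs were scaled and fitted separately.

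**Figure D4:**
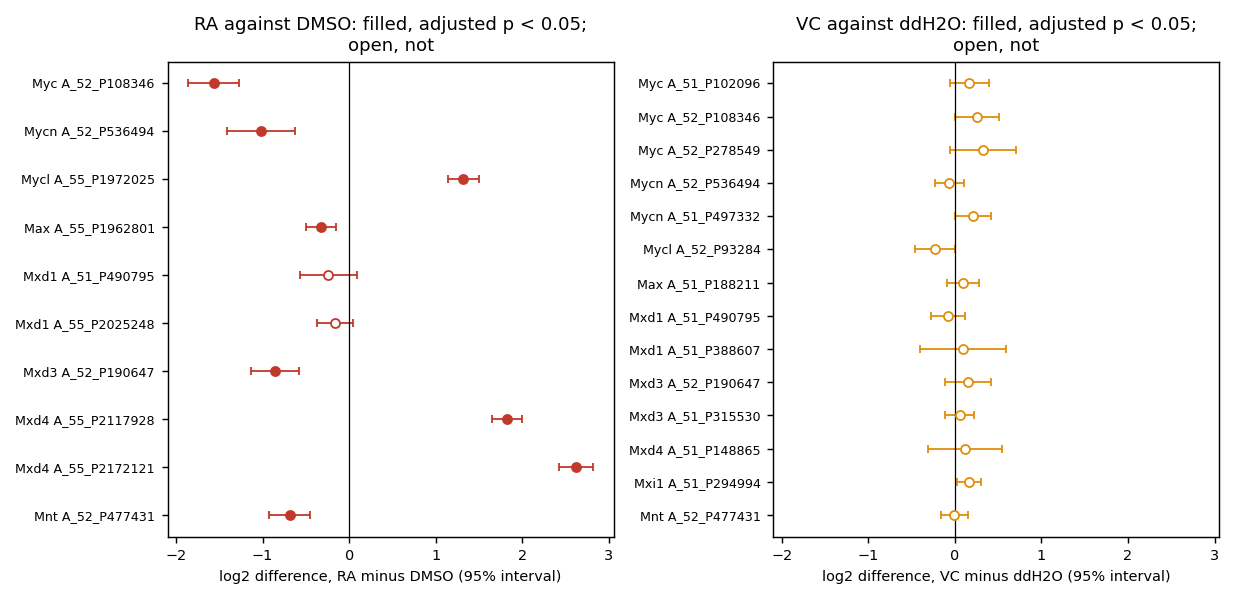
Log2 difference of each tested member probe with its 95% interval, RA minus DMSO on the left and VC minus ddH2O on the right, on the same scale. Filled points passed a limma adjusted p under 0.05 and open points did not. RA differences run from -1.57 to 2.62, with 8 of 10 filled, and VC differences from -0.23 to 0.33, with none filled.

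The genes whose pattern over the 12 arrays lay nearest to the 3 members with the greatest called change were found by Euclidean distance between log2 levels taken relative to the control mean, over 13283 genes tested on both designs. Nearest to Mxd4 were Mapkapk2, a kinase gene (distance 0.42), Srgap3 (0.49) and Alyref2 (0.50), against a median distance of 3.58 over all genes. Nearest to Myc were Farsb, a subunit of phenylalanyl-tRNA synthetase (0.24), Gemin6 (0.29) and G3bp2, an RNA-binding protein gene (0.29), against a median of 2.62. Nearest to Mycl were Rab15, a small GTPase gene (0.23), Rnf130 (0.24) and Robo1, a guidance receptor gene (0.24), against a median of 2.77. These genes were chosen for the likeness, which is therefore a description.

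Textbook targets that Myc activates were mostly lower in RA samples than in DMSO samples. Of 22 tested genes of ribosome synthesis, 0 rose and 21 fell (median -0.85), and of 25 genes of metabolism, translation and division 2 rose and 22 fell (median -0.83). Among all 16015 genes, each by its brightest probe, 34.8% were called higher and 40.8% lower, and the median was -0.07. Rrp9, which processes ribosomal RNA, was lower by 3.52-fold (-1.81 on the log2 scale, SE 0.08, limma adjusted p = 8.21e-06). Ncl, the gene of nucleolin, was 3.21-fold lower at its brightest probe and by a log2 difference of -1.06 at the other. Tfrc, the transferrin receptor gene, was 5.36-fold lower, and Slc7a5, an amino acid transporter gene, 4.84-fold lower (its other probe, -0.70).

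The exceptions among the activated targets were Ccnd2, the cyclin D2 gene, 18.9-fold higher in RA samples, and Slc16a1, a lactate transporter gene, 2.81-fold higher. Each rests on its only tested probe, and that of Slc16a1 had a low mean level of -2.98 in DMSO samples. Genes that Myc is known to repress gave 7 rises and 3 falls among 12 (median 0.65). Thbs1, the thrombospondin 1 gene, was 73.8-fold higher, from a dim mean level of -5.16 in DMSO samples. Its log2 difference was 6.21, and 4.01 to 6.17 over 5 other scalings or background corrections. Gas1, a growth arrest gene, was 47.0-fold higher, although its other probes gave 1.89 and 5.38 on the log2 scale. Ndrg2 and Ndrg1, both in this list of repressed genes, were instead 18.4-fold and 9.32-fold lower. The counts of the activated targets stayed at 38 to 44 lower and 2 to 3 higher over 18 other settings.

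Partners of the network showed both directions. Their counts stand beside the 34.8% of all genes called higher and 40.8% called lower and the median of -0.07. No list was tested against these values, so the counts are a description. Of 17 tested coactivators of Myc, 2 rose and 9 fell (median -0.20), against 5 and 6 with quantile normalization (median -0.10) and 1 and 13 with spike-in scaling (median -0.68). Crebbp, a histone acetyltransferase gene, was 8.32-fold higher at its only tested probe. Its paralogue Ep300 was 1.52-fold higher (0.60 on the log2 scale, but 0.12 and not called with spike-in scaling). Ruvbl2 and Actl6a, of chromatin remodelling complexes, were 2.34-fold and 2.26-fold lower. Zbtb17, which encodes the Myc partner Miz-1, was not well above background at its brightest probe of this design (A_55_P2019287). On the VC design another probe (A_51_P463849) was well above background on every array, so the gene was detected in these cells. Of 16 corepressor genes 3 rose and 9 fell (median -0.41), against 4 and 6 with quantile normalization (median -0.12). Sap30 and Sin3a, of the Sin3 complex, were 2.83-fold and 1.98-fold lower, and Sap18 was 1.73-fold higher. Rbbp7 was 1.38-fold higher, but its log2 difference of 0.47 became -0.01 with spike-in scaling, under which 0 corepressor genes were called higher.

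Among 23 genes that set the stability of Myc protein, 6 rose and 11 fell (median -0.21), with 2 and 15 under spike-in scaling. Fbxo32, a ubiquitin ligase gene, was 9.97-fold higher and the kinase gene Gsk3b 2.27-fold higher, while the kinase genes Pim2 and Pim3 were 6.83-fold and 3.97-fold lower. Of 12 regulators of Myc transcription 0 rose and 9 fell (median -0.50), against 2 and 7 with quantile normalization and in the authors' series values. Lef1, a Wnt pathway factor, was 11.6-fold lower, and Cnbp was 1.66-fold lower but called in 3 of 5 other scalings or background corrections. Of 10 further factors of the Max and Mlx branches or with E-box binding, 1 rose and 5 fell (median -0.54). Tfeb and Mitf, lysosomal and melanocyte regulators, were 4.19-fold and 3.45-fold lower. Mlxipl, a glucose-responsive partner of Mlx, was 1.59-fold higher at its brightest probe, which was not called with spike-in scaling (0.19), and differed by -0.41 at the other.

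Lists of cell type markers were counted in the same way in RA samples, beside the 34.8% of all genes called higher and 40.8% called lower. Of 10 stem cell markers 1 rose and 9 fell (median -4.84), and their summed linear signal, in multiples of the 75th percentile of the array, was 83.9 to 94.5 in RA samples and 603 to 622 in DMSO samples. The one that rose was Nanog (2.50-fold at its only tested probe). A linear sum weighs bright genes most, and the brightest of these markers was Dppa5a (mean level 6.26 in RA and 8.39 in DMSO samples). Of 10 fibroblast markers 7 were tested, and 6 rose and 1, Thy1, fell. The sum of this list was 38.1 to 40.8 in RA samples and 2.06 to 2.21 in DMSO samples. Its brightest genes were Col1a2 in RA samples (mean level 5.11) and Thy1 in DMSO samples (0.33). Fap, Lum and Postn were never well above background. Of 8 blood and endothelial markers 6 were tested, with 2 rises and 2 falls and a sum of 10.3 to 15.8 in RA samples and 10.1 to 10.9 in DMSO samples, and Cdh5 and Hbb-bt were not above background on any array. Their part in the results on the network was not tested.

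**Figure D5:**
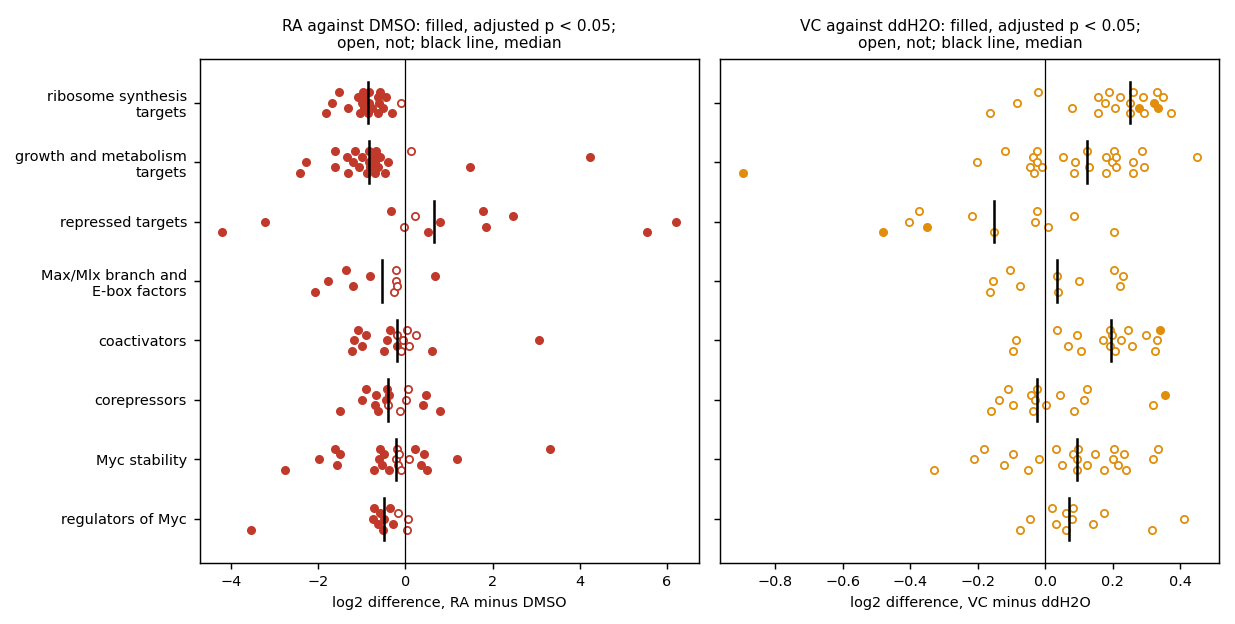
Log2 difference of each tested gene of 8 lists around the network, RA minus DMSO on the left and VC minus ddH2O on the right, on different scales. Filled points passed a limma adjusted p under 0.05, and black lines are medians. The medians of both groups of activated targets lie at -0.85 and -0.83 for RA, and at 0.25 and 0.12 for VC. In VC both turned negative with normexp background correction (-0.09 and -0.21), which called 0 of all probes and moved the median of all probes to 0.27.

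In VC samples few genes around the network were called. Of 21 ribosome synthesis targets 3 rose and 0 fell (median 0.25), against 3.18% of all 14531 genes higher and 7.14% lower and a median of -0.000588. These were Polr1b, a subunit of RNA polymerase I (1.26-fold higher, 0.33 on the log2 scale, SE 0.06, limma adjusted p = 0.0287), Nop16 (1.25-fold higher) and Nop2. Of 25 growth targets 0 rose and 1 fell, which was Ccnd2 (1.86-fold lower, adjusted p = 0.0127, and lower at its other probes, by log2 differences of -1.03 and -0.79). Of 11 repressed targets 0 rose and 2 fell, Ndrg1 (1.39-fold) and Ndrg2 (1.27-fold). Dmap1 was the 1 of 18 coactivators (median 0.19) and Brms1 the 1 of 15 corepressors that rose, by 1.27-fold and 1.28-fold, and 0 of 23 stability genes, 0 of 12 regulators of Myc and 0 of 10 related factors were called.

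These VC calls did not hold in all settings. The count of activated targets called higher was 0 whenever any 1 of the 6 samples was left out. It was also 0 with the slide as a fixed block, under which 0 of all probes were called. Dmap1, Brms1, Ndrg1, Ndrg2, Esrrb and Klf4 were likewise called in 0 of the 6 fits that left out a sample. Ccnd2, Thy1 and Cd34 were called in 3 each, which were all of these fits that called any probe. Without VC replicate 1, ddH2O replicate 1 or ddH2O replicate 2, 0 of all 28160 probes were called, so no gene could be. The fits without another sample called 104 to 266 probes higher and 281 to 772 lower, against 836 and 1497 in the main setting. With normexp 0 genes of these lists were called, and the medians turned to -0.09 for ribosome synthesis targets, -0.21 for growth targets, -0.10 for coactivators and -0.06 for stem cell markers. That setting called 0 of all probes and moved their median to 0.27, so its 0 calls are not particular to these lists. With normexp without spots of high local background, 188 probes were called higher and 355 lower, and the median of all probes was -0.000918. With median and with spike-in scaling 0 repressed targets were called lower. Of the stem cell markers 3 of 8 rose, Esrrb by 1.32-fold and Klf4 by 1.31-fold among them, with a summed signal of 591 to 641 in VC samples and 554 to 634 in ddH2O samples. The fibroblast markers summed to 2.61 to 2.99 in VC samples and 3.39 to 3.73 in ddH2O samples. Such a sum weighs bright genes most, and the brightest was Thy1 (mean level 0.52 in VC and 1.13 in ddH2O samples). Of 7 tested, 0 rose and 1 fell, Thy1 (1.53-fold), against 3.18% of all genes higher and 7.14% lower. The differences were positive at 3 of these markers and negative at 4, so the sum does not describe the whole list. The blood and endothelial markers summed to 1.30 to 1.36 in VC samples and 1.59 to 1.70 in ddH2O samples. The brightest in ddH2O samples was Cd34 (mean level -0.63, and -1.62 in VC samples). Of 5 tested, 0 rose and 1 fell, Cd34 (1.98-fold). The differences were negative at 4 of these markers and positive at 1, Tek (0.23, not called), so this sum does not describe its whole list either. The part of these markers was not tested.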

How the data were processed

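Total RNA of 12 samples was hybridised to Agilent one-colour (Cy3) arrays, VC and ddH2O samples on 1 design and RA and DMSO samples on another. Per the file headers, spot intensity was extracted and background-subtracted with Agilent Feature Extraction 10.7.3.1 (10.7 in the submitters' processing notes). Log2 values per probe stand in the deposited series tables, and their normalization is not stated in the sources used here. Flags for well above background, saturation and outliers were read as deposited.

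From each log2 intensity the array's 75th percentile over non-control spots was subtracted, outlier spots were left out and spots of a probe averaged. A RefSeq gene table (GRCm38.p6) gave symbols for accessions and nothing else: 27479 of 41174 probes (VC design) and 27235 of 55681 (RA design) matched. Probes well above background on at least 3 of 6 arrays were tested, 28160 and 37050, in R 4.3.3 with lmFit and eBayes of limma 3.58.1, and the Benjamini-Hochberg adjustment ran over all of them. A gene in a list was represented by its brightest probe. The fit was tested on simulated data. The number of arrays limits the precision.

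All member probes are named, and from each list up to 2 rises and 2 falls among called genes without overlap, the nearest patterns, and 4 check genes. Nop2 was named after its value was seen. Members and lists were chosen with earlier results of these data known. Alternatives changed scaling, background correction, filter, probe summary, variance model, blocks and samples.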

Additional observations from a re-analysis of the deposited data

How the results depend on the processing

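In RA against DMSO the counts of member probes stayed at 2 to 3 higher and 5 to 7 lower over 18 alternatives, and of 178 values of single probes 167 kept direction and side of the threshold. The exceptions were the lost Max call and the gained Mxd1 calls given above, and the calls of Mxd1 A_55_P2025248 under quantile normalization (-0.36) and in the authors' series values (-0.37), and its value of 0.01 with normexp background correction. The authors' series values moved the ratio to Max to -1.57 for Myc, 1.25 for Mycl, -0.36 for Mxd1, -0.84 for Mxd3 and 1.90 for Mxd4, and the mean of all detected probes moved that of Mxd4 to 2.55. In VC against ddH2O 0 member probes were called under 20 alternatives, some of which called 0 of all probes (given below). Of 275 single values there, 15 changed sign. The activated targets called higher in VC, 3 in the main setting, numbered 10 with median scaling, 1 with quantile normalization, 1 in the authors' series values, 7 with the filter at all 6 arrays, 11 with one probe a gene, 18 with trend and robust variance, and 0 with normexp, with normexp without spots of high local background (added after seeing the data), without a filter, with the replicate block, with the slide as a fixed block and over all samples left out in turn (0 to 0). The activated target called lower, 1 in the main setting, became 0 with normexp, without a filter, with the replicate block and with the slide as a fixed block, and 0 to 1 with samples left out. With normexp, without a filter, with the replicate block and with the slide as a fixed block, 0 of all probes were called in VC. The cause was not tested.

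Over all probes the VC calls, 836 higher and 1497 lower, became 0 and 0 without VC replicate 1, ddH2O replicate 1 or ddH2O replicate 2, with normexp, without a filter, with the slide as a fixed block and with the replicate block, under which 7644 probes had an unadjusted p under 0.05. They became 266 and 772 without VC replicate 2, 171 and 495 without VC replicate 3, 104 and 281 without ddH2O replicate 3, 188 and 355 with normexp without spots of high local background, 2021 and 2247 with trend and robust variance, 806 and 906 with spike-in scaling and 1396 and 1080 with median scaling. Of these calls 35.8% were higher in the main setting, 47.1% with spike-in scaling and 56.4% with median scaling. In RA, calls of 13354 higher and 13170 lower became 6603 and 17623 with spike-in scaling, 9112 and 17722 with median scaling, and 22637 and 12963 without a filter. Replicate numbers did not pair the samples: deviations of same-numbered samples correlated at -0.07, 0.05 and -0.02 in VC and ddH2O and at -0.03, 0.02 and -0.04 in RA and DMSO, and not every sample correlated best with its own number. The replicate block left 12711 higher and 12341 lower in RA and changed no member count there. The widest interval in VC was that of Mxd1 A_51_P388607 (-0.41 to 0.59).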
